A study of Mus musculus with 8 samples.

Results

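The Hox genes encode homeodomain transcription factors that give cells their position along the head-to-tail axis and along the limb. In mice they lie in 4 dense loci, Hoxa on chromosome 6, Hoxb on chromosome 11, Hoxc on chromosome 15 and Hoxd on chromosome 2, and their order in a locus follows the order in which they act along the body. Polycomb complexes keep them silent where they are not used, their CpG islands are known to stay largely free of DNA methylation in many tissues, and muscle stem cells of the adult mouse are known to keep a pattern of Hox expression that reflects the position of their muscle. The members described here are 38 of the 39 Hox genes in RefSeq GRCm38.p6 (the other one was not analysed here), taken by symbol from a fixed list, 10 each in Hoxa and Hoxb and 9 each in Hoxc and Hoxd. At each gene, with 3000 bp on each side, the clusters of cytosine positions that the authors tested were counted. The genes held 133 distinct clusters of the 27878 in the deposited lists.

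The assay, reduced representation bisulfite sequencing (RRBS), enriches short CpG-rich fragments and reads which of their cytosines are methylated. The material was genomic DNA of sorted skeletal muscle stem cells from mice of the strain Tg:Pax7-nGFP/+, in which a nuclear GFP reports on Pax7, the defining transcription factor of this cell type. There were 4 samples labelled fixed, which the design text ties to 0.5% paraformaldehyde, and 4 labelled live, with 1 animal behind each sample. Fixed samples are titled T0 and live samples T3, so fixation cannot be told apart from whatever else that difference in title stands for, and the title and the design text of the series place the fixation at different steps. The labels state no age for the mice. The question was whether fixation alters methylation levels. Values per sample and read depths were not used here: the lists give positions and a verdict per cluster, so no level, no spread between animals and no direction is given for any Hox gene, and the cell type on the label could not be checked against markers.

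None of the Hox clusters was called different between fixed and live samples. The authors list 0 of the 133 Hox clusters as significant, against 0.0753% of all clusters (21 of 27878). At that overall share 0.100 calls were expected, and a count of 0 allows a called share of up to 2.26%, so fewer calls than elsewhere could not have been detected. By locus the count was 0 of 27 clusters at Hoxa genes, 0 of 39 at Hoxb genes, 0 of 28 at Hoxc genes and 0 of 39 at Hoxd genes, which allows up to 11.1%, 7.69%, 10.7% and 7.69%. In the authors' deposited table of 21 regions, 0 regions were assigned to a Hox gene and 0 overlapped a Hox gene with its 3000 bp margins. The list of significant clusters also holds 21 entries, and the called regions named next have the same bounds in both. The 0 overlap is therefore no separate check of the count of 0 called clusters. The nearest called regions on chromosomes 11 and 15 lay 7.95 Mb from the Hoxb locus and 75.3 Mb from the Hoxc locus, and none was called on chromosomes 6 and 2.

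The sequences below show how clusters sit at Hox promoters. Each is the stretch of 250 bases before a transcript start on the gene's own strand, from RefSeq GRCm38.p6, and capitals mark bases inside a cluster. Hoxd11 and Hoxd12, needed for the forearm and the digits, had the most covered promoters, and Hoxa6 and Hoxb1 show clusters that end or begin inside the window. The Hoxd11 stretch shown lies at an inner start. The promoter window at the outer start of Hoxd11 (chr2:74679308-74679607) had 0 bases covered. Hoxa13 is shown because it was rich in CpG and yet had no cluster there, and Hoxa7 because it was the gene with no cluster at all.
Hoxd11, chr2:74682073-74682322, plus strand: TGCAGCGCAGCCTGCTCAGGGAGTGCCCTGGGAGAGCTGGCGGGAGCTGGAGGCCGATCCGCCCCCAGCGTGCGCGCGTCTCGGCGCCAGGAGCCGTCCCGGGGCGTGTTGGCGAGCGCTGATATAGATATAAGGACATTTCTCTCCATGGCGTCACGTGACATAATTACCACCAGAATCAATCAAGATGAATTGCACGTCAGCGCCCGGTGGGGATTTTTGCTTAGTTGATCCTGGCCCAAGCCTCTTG
Hoxd12, chr2:74674763-74675012, plus strand: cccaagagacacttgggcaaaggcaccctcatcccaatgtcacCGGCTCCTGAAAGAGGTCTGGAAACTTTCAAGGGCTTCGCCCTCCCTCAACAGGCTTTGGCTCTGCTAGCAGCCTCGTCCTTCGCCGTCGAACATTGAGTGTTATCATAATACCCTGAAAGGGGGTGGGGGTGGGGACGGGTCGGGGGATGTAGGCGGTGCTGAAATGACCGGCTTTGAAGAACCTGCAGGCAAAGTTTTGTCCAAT
Hoxa6, chr6:52208673-52208922, minus strand: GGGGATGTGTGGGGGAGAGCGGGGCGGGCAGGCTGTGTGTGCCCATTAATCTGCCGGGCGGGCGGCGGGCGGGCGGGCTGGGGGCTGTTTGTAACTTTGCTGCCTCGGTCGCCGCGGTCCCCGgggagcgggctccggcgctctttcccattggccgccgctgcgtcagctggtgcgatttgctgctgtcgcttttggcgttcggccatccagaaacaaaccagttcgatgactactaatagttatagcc
Hoxb1, chr11:96365508-96365757, plus strand: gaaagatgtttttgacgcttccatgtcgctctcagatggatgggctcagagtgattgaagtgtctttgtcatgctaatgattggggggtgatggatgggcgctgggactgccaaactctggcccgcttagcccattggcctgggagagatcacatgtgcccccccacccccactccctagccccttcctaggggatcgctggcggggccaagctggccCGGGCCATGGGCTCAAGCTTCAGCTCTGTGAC
Hoxa13, chr6:52260881-52261130, minus strand: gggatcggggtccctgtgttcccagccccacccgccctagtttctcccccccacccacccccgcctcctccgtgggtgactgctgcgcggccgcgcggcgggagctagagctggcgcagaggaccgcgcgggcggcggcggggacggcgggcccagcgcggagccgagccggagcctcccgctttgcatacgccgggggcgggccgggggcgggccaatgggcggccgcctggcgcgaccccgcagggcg
Hoxa7, chr6:52218574-52218823, minus strand: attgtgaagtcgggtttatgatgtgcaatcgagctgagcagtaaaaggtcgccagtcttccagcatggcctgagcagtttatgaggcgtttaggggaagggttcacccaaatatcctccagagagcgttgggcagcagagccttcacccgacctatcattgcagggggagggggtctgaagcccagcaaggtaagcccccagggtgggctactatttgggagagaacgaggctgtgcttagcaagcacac

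The whole stretch of 250 bases was inside a cluster at Hoxd11, 207 bases were at Hoxd12, 123 at Hoxa6 and 32 at Hoxb1, and 0 were at Hoxa13 and Hoxa7. RRBS as commonly done cuts DNA with MspI, whose site is CCGG; the enzyme is not named in the labels. These 250 bases held 2 CCGG motifs at Hoxd11, 2 at Hoxd12, 3 at Hoxa6 and 1 at Hoxb1, but also 3 at Hoxa13, and 0 at Hoxa7. CCGG reads the same on both strands and each match contains a CG. The CG count was 20 at Hoxd11, 10 at Hoxd12, 24 at Hoxa6, 7 at Hoxb1, 35 at Hoxa13 and 7 at Hoxa7. A promoter rich in CG was therefore not always one with a cluster.

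Promoter windows of 300 bases (250 before and 50 after a start) could be matched for 22 of the 38 genes, with 24 windows in all. By locus 10 windows belonged to Hoxa, 3 to Hoxb, 1 to Hoxc and 10 to Hoxd genes. A cluster overlapped 7 of the 24 Hox windows, or 29.2% (exact Clopper-Pearson 95% interval 12.6 to 51.1%, counting error only), and 7.74% of 32827 other windows (7.46 to 8.04%). The 7 were at Hoxa5, which is required for lung development, Hoxa6, Hoxa11, Hoxb1, which specifies a segment of the hindbrain, Hoxd9, Hoxd11 and Hoxd12. Hox windows were also richer in CpG, with a median of 14.5 CG against 7 in the others, and 79.2% of them against 52.8% held a CCGG. Among windows with a CCGG, 7 of 19 Hox windows (36.8%) and 14.6% of the others were overlapped, and among windows without one 0 of 5 Hox windows and 6 of 15508 others were. The part of base composition in the Hox share was not tested.

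**Figure D1:**
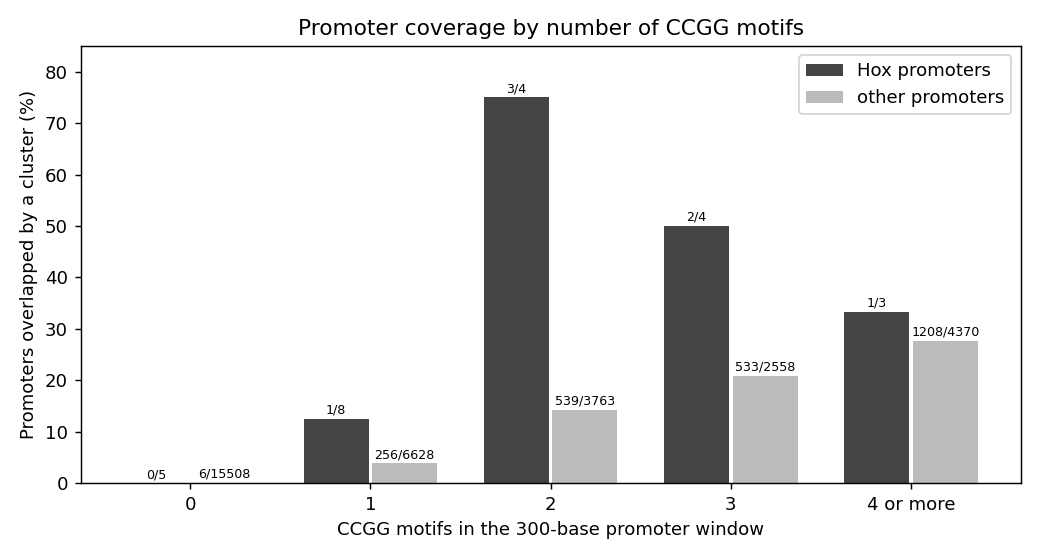
Share of 300-base promoter windows overlapped by a cluster (vertical axis, percent) by the number of CCGG motifs in the window (horizontal axis), for Hox promoters (dark bars) and other promoters (pale bars), with the counts above each bar. Without a CCGG the counts are 0 of 5 and 6 of 15508; with 2 motifs they are 3 of 4 and 539 of 3763, and the Hox bars rest on 3 to 8 windows each.

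Where a cluster began or ended inside a promoter window, it did so on a CG. This held for 8 of 8 cluster ends in Hox windows and for 2896 of 2898 in other windows, so in these windows the deposited spans ran from CpG to CpG. Of these ends, 3 of 8 in Hox windows and 38.5% in other windows lay at a CCGG.

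Hox genes were covered far more densely than most genes. Of the 38 genes, 37 (97.4%, exact 95% interval 86.2 to 99.9%) had a cluster, as did 47.7% of 21858 other protein-coding genes. The median was 4 clusters per Hox gene and 0 per other gene, or 4 against 1 among genes that had any. At least 5 clusters lay at 16 Hox genes (42.1%) and at 3.79% of the others, and at least 11 lay at 4 Hox genes and at 87 of the others. Per 10 kb of gene and margins, the median Hox gene had 3.20 clusters. Clusters at neighbouring Hox genes are partly the same ones, so these genes are not independent and no test was run over them: 91 of the 133 clusters belonged to 1 Hox gene, 40 to 2 genes and 2 to 3 genes (Hoxa3, Hoxa5 and Hoxa6). Most of the clusters, 98 of 133 (73.7%), touched a Hox gene body, and 35 lay only in the margins.

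The clusters at Hox genes were also long. Their median length was 133 bp (quartiles 75.0 and 233 bp), against 89 bp (57.0 and 145 bp) for the other clusters. Of the Hox clusters, 14 (10.5%) were at least 400 bp long, and 2.85% of the others were. At Hoxd the median was 152 bp and 7 clusters reached 400 bp, at Hoxa 142 bp with 1, at Hoxc 129 bp with 3 and at Hoxb 116 bp with 3. The longest, of 799 bp, lay in Hoxb7 (chr11:96286576-96287374), and the next, of 792 bp, lay in Hoxa11 (chr6:52244539-52245330), a gene of the forearm skeleton.

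Taken as whole loci, from 3000 bp before the first gene analysed to 3000 bp after the last, the 4 loci were filled to different degrees. Hoxd had 40 clusters in 103 kb, Hoxa 30 in 104 kb, Hoxc 31 in 122 kb and Hoxb 50 in 180 kb. Per 10 kb this was 3.89 clusters at Hoxd, 2.87 at Hoxa, 2.78 at Hoxb and 2.55 at Hoxc. The covered share was 8.94% at Hoxd, 5.68% at Hoxa, 4.25% at Hoxb and 4.20% at Hoxc. Over the whole locus, Hoxd thus came first in number per kb and in covered share, and the other loci lay close together in number per kb. Taken gene by gene with margins, the order differed. The median gene had 4.47 clusters per 10 kb at Hoxb, 3.20 at Hoxd, 3.14 at Hoxa and 2.45 at Hoxc. Median covered shares per gene were 6.33% at Hoxb, 5.85% at Hoxc, 5.38% at Hoxd and 5.03% at Hoxa. The lead of the whole Hoxd locus in number narrowed when close neighbours were merged. With clusters within 1000 bp of each other merged, the windows of the Hoxd genes held 20 clusters, against 39 as listed. Those of the Hoxa genes, in a locus of nearly the same length, then held 18, against 27. With 1 value per locus the differences between loci have no replicate check.

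Cluster density was lower outside the borders of the loci. In the 100 kb on each side, the flanks of Hoxa held 0.65 clusters per 10 kb, those of Hoxb 0.45, those of Hoxd 0.35 and those of Hoxc 0.25. The flanks were uneven: Hoxa had 0 clusters on the side of Hoxa2 and 13 on the side of Hoxa13, and Hoxd had 7 on the side of Hoxd13 and 0 on the side of Hoxd1. The flanking homeobox genes Evx1, next to Hoxa13, and Evx2, next to Hoxd13, held 6 and 7 clusters with their margins. In windows of 100 kb moved by 10 kb, the fullest window touching each locus held 44 clusters at Hoxd, 35 at Hoxb, 30 at Hoxa and 29 at Hoxc. These windows can reach into the flanks, so the 44 at Hoxd is above the 40 of the locus itself. Elsewhere, 119182 windows with at least 1 cluster had a median of 2 and a highest count of 34. Of them, 3 reached the count of Hoxc, 2 that of Hoxa and 0 that of Hoxb or Hoxd. Windows overlap their neighbours, so those that reached a count need not be separate places.

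**Figure D2:**
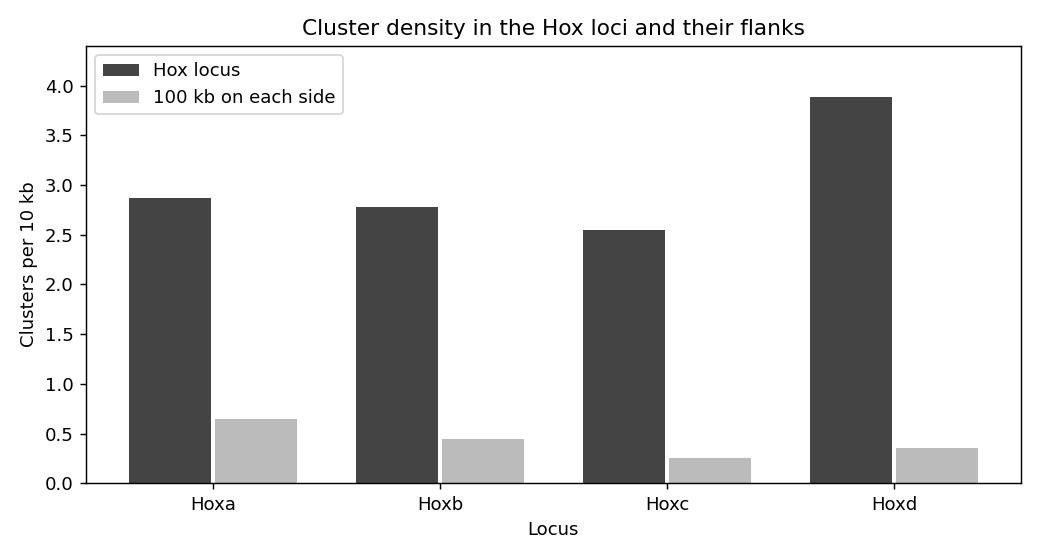
Clusters per 10 kb (vertical axis) in each Hox locus (dark bars) and in the 100 kb on each side of it (pale bars). The loci lie between 2.55 and 3.89 clusters per 10 kb and the flanks between 0.25 and 0.65.

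Clusters were spread unevenly inside the loci. The median gap between neighbouring clusters was 1009 bp at Hoxd, 1293 bp at Hoxb, 1705 bp at Hoxa and 1748 bp at Hoxc, and 48.7% of the gaps at Hoxd were under 1000 bp, against 34.7% at Hoxb, 37.9% at Hoxa and 36.7% at Hoxc. The longest gap at Hoxb, of 26853 bp, lay between Hoxb13 and Hoxb9, where no other Hox gene stands. At Hoxd the longest gap, of 20508 bp (chr2:74705007-74725514), took in most of Hoxd8 and the starts of Hoxd3 and Hoxd4. At Hoxa it was 14788 bp (chr6:52209647-52224434) and held the whole of Hoxa7, with the start of Hoxa3 and the far end of Hoxa9, and at Hoxc it was 11914 bp and reached from the end of Hoxc5 into Hoxc4. A gap says that no cluster was listed there; whether reads were missing there or were filtered is not stated in the labels.

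**Figure D3:**
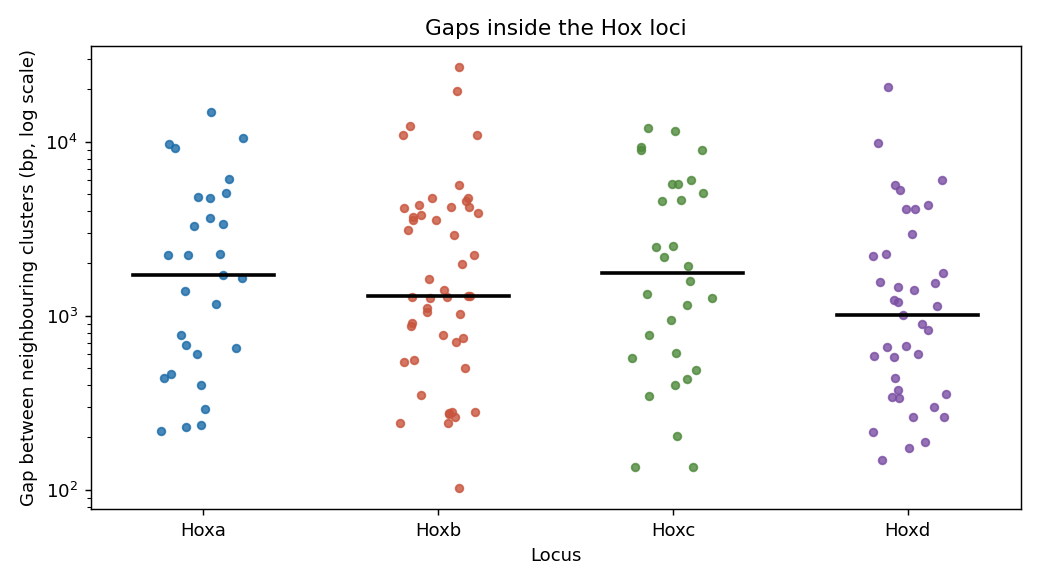
Gap between neighbouring clusters (vertical axis, bp, log scale) inside each Hox locus; each point is 1 gap and the black line is the median of the locus. The medians lie between 1009 bp at Hoxd and 1748 bp at Hoxc, and the longest gaps are 26853 bp at Hoxb and 20508 bp at Hoxd.

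**Figure D4:**
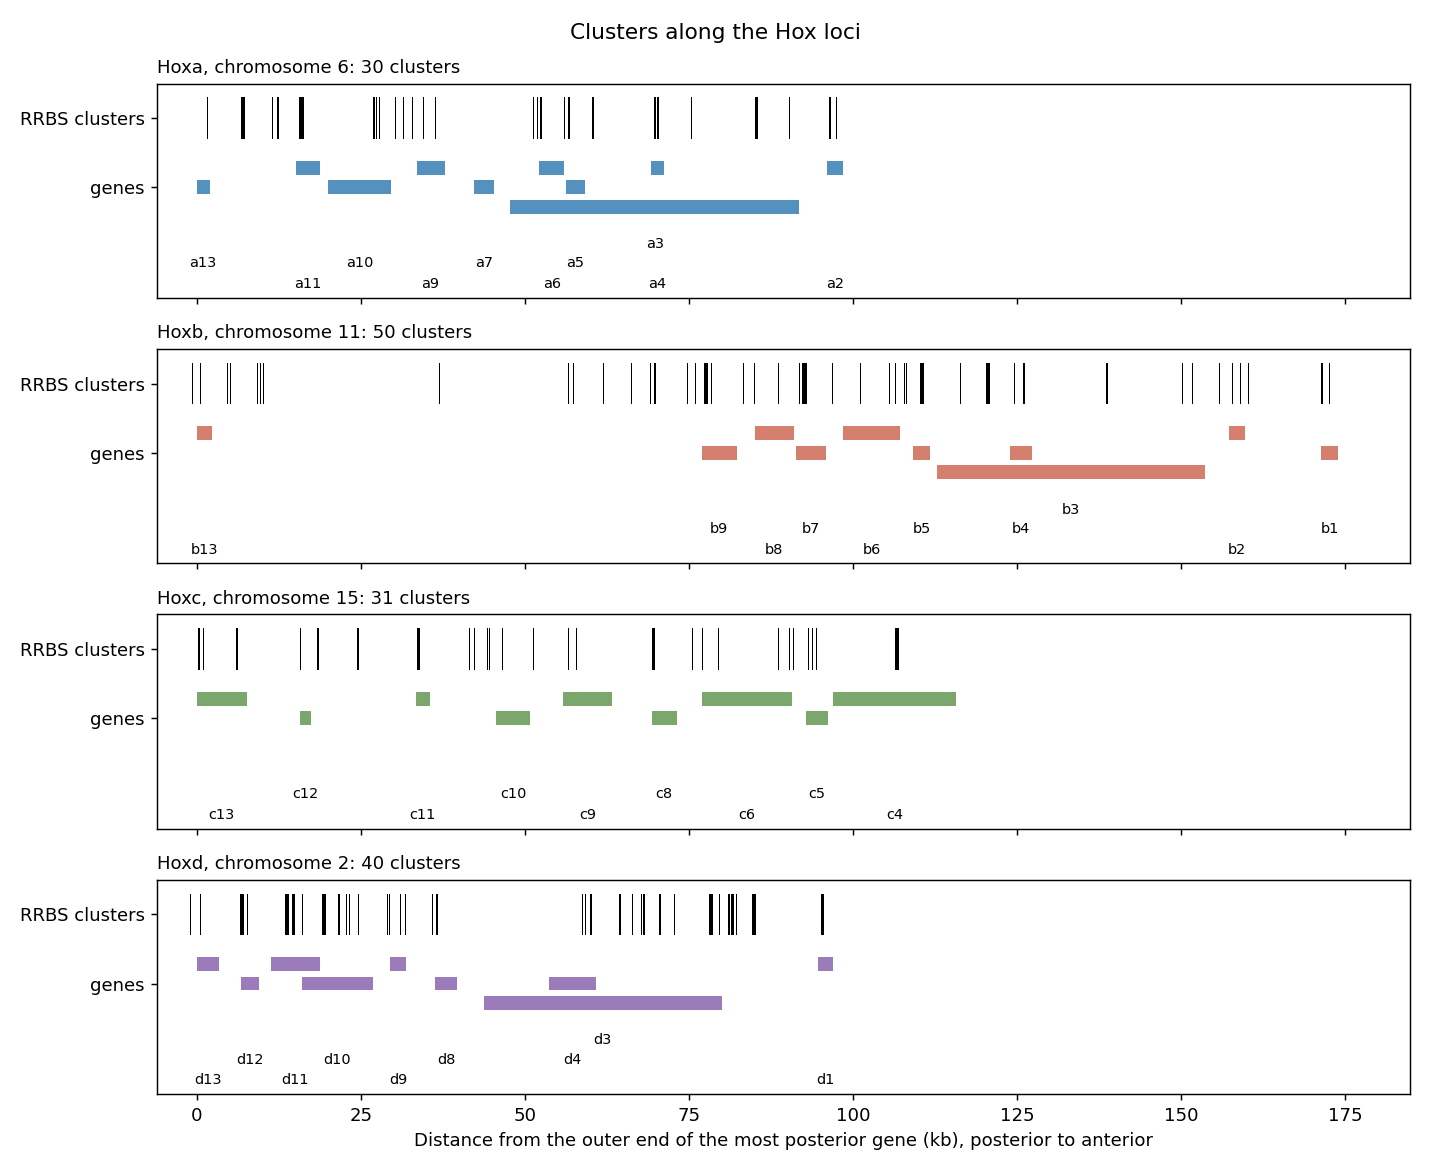
The 4 Hox loci drawn to the same scale, with the distance from the outer end of the most posterior gene in kb (horizontal axis), genes as coloured bars named by letter and number, and clusters as black marks; clusters narrower than 120 bp are drawn slightly widened. The empty stretches at Hoxa7, between Hoxb13 and Hoxb9 and from Hoxd8 to Hoxd4 are the long gaps of 14788, 26853 and 20508 bp.

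Within Hoxa, the anterior gene Hoxa3, which shapes neck and thymus, had the most clusters, 11, and the largest covered length, 2432 bp, while Hoxa7 had 0. The outer bounds of Hoxa3 run over 44.0 kb and take in Hoxa4, Hoxa5 and Hoxa6, so per 10 kb Hoxa3 had only 2.20 clusters and Hoxa6 had 5.09. The nearest clusters to Hoxa7 lay 5976 bp and 5861 bp from its ends. Hoxa10, known for the lumbar spine and the uterus, had 5 clusters and 810 bp, and Hoxa9, which has been linked to muscle stem cell ageing in mice, had 4 clusters but only 278 bp. At Hoxa11 3 clusters covered 1179 bp, or 12.1% of the gene with its margins. Hoxa13, a gene of the digits and the genital tract, had 2 clusters that together covered 13 bp. Hoxa2, which patterns the jaw region, had 3 clusters, Hoxa4 had 2 and Hoxa5 had 3.

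Within Hoxb, Hoxb3 had the most clusters, 12, and the largest covered length, 2431 bp, over outer bounds that also span Hoxb4. The fewest, 2 each, were at Hoxb1 and at Hoxb4, a regulator of blood stem cells. Per 10 kb the order changed, and Hoxb5 led with 6.97 clusters, followed by Hoxb13, a gene of the tail and the prostate that stands apart from the rest of the locus, with 6.03 and Hoxb2 with 5.96. Hoxb7 and Hoxb8 shared the 799 bp cluster and had 1204 and 1245 bp covered. The remaining genes, Hoxb6 and Hoxb9, had 7 and 6 clusters with 485 and 925 bp, so the 7 clusters of Hoxb6 were short.

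Within Hoxc, which has no gene of the most anterior groups, Hoxc6 had the most clusters, 8, and 627 bp covered. The largest covered length, 800 bp, was at Hoxc13, a gene of hair and nails, with 3 clusters, the longest of them 443 bp. The fewest, 2 each, were at Hoxc8, which patterns the thoracic skeleton, Hoxc11 and Hoxc12, and still covered 592, 574 and 528 bp. At Hoxc9, which acts in thoracic motor neurons, 3 clusters covered 197 bp, the least of the locus. Hoxc5 and Hoxc10 had 5 clusters each, with 594 bp covered at either gene, and Hoxc4 had 3. Hoxc4 had 1.21 clusters per 10 kb, the lowest density among the 37 genes with a cluster.

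Within Hoxd, Hoxd3 had 17 clusters and 3839 bp, both the highest among the 38 genes, while Hoxd1, a gene of sensory neurons, had 1 cluster, of 439 bp. The outer bounds of Hoxd3 run over 36.3 kb and take in the whole of Hoxd4, and per 10 kb Hoxd3 had 4.02 clusters. Hoxd10, which acts in the hindlimb and its motor neurons, had 12 clusters and 2831 bp, and its 7.13 clusters per 10 kb and 16.8% covered were the highest values among the 38 genes. Its neighbour Hoxd11 had 7 clusters, 2075 bp and 15.4% covered, and the annotated bounds of the 2 genes overlap, so they share clusters. Hoxd12 had only 2 clusters, but 1 of them was 694 bp long and covered the start of the gene. Hoxd13, the last gene and one that forms the digits, had 3 clusters covering 99 bp. Hoxd4, Hoxd8 and Hoxd9 had 4, 2 and 4 clusters.

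**Figure D5:**
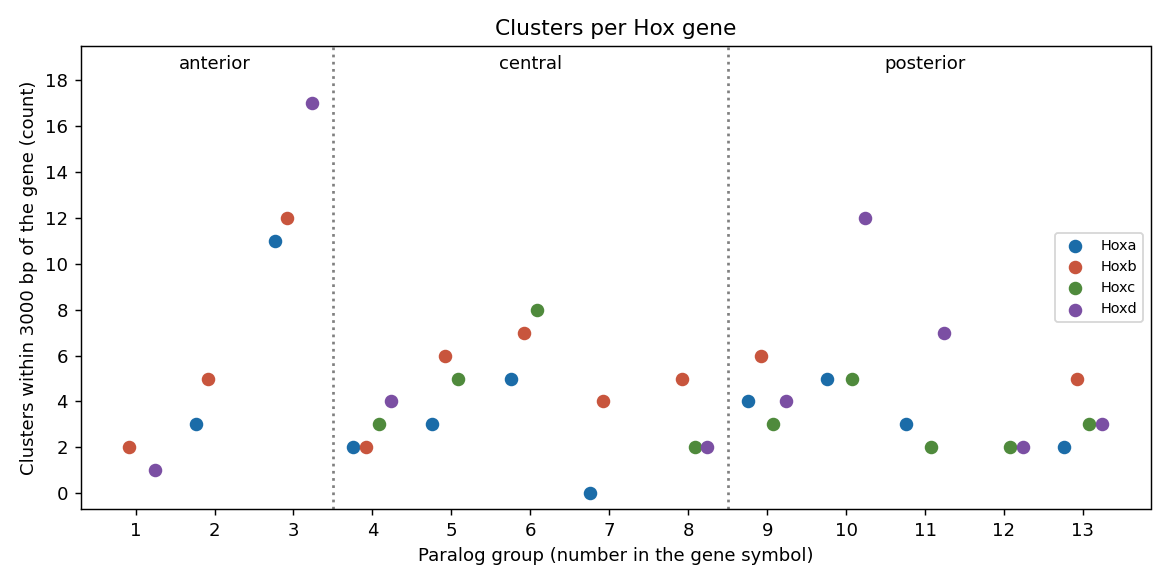
Clusters within 3000 bp of each Hox gene (vertical axis, count) by paralog group (horizontal axis), coloured by locus; dotted lines part the anterior, central and posterior groups. The 3 genes of group 3 lie at 11, 12 and 17 clusters, Hoxa7 lies at 0 and Hoxd10 at 12.

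Anterior genes (paralog groups 1 to 3), central genes (4 to 8) and posterior genes (9 to 13) were then set side by side. The 7 anterior genes had a median of 5 clusters (1 to 17), the 15 central genes 4 (0 to 8) and the 16 posterior genes 3.5 (2 to 12), and the ranges overlapped throughout. With each cluster counted at its nearest Hox gene only, the medians were 5, 2 and 3, so that the central genes then lay below the posterior genes. Per 10 kb the medians were 2.56 for anterior, 3.40 for central and 3.20 for posterior genes, with the anterior genes lowest. Median covered shares were 5.19%, 6.08% and 5.83%. The highest counts among the anterior genes came from paralog group 3 alone (11 at Hoxa3, 12 at Hoxb3 and 17 at Hoxd3), whose annotated bounds are the longest, while the genes of group 1 had 1 and 2. The anterior genes thus had the highest median count and the lowest median density. In 3 of the 4 loci the posterior genes had the highest median density. In Hoxb the anterior, central and posterior genes had 2.56, 4.19 and 5.68 clusters per 10 kb at the median, with only 2 posterior genes. In Hoxd they had 2.62, 2.59 and 4.74, with only 2 anterior and 2 central genes, and the posterior genes Hoxd10 and Hoxd11 share clusters. The groups lay close together in Hoxa, at 2.88, 2.94 and 3.14, with only 2 anterior genes. In Hoxc, which has no anterior gene among the members, the central genes had 3.06 and the posterior genes 2.45. None of the clusters in any of these groups was called, beside 0.0753% of all clusters (21 of 27878), so the groups could not be told apart in this.

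The Hox loci also carry microRNA genes, among them miR-196, which is known to target Hox messages. They are shown by mature sequence, from RefSeq GRCm38.p6, with the seed (bases 2 to 8) in capitals. The miR-10 and miR-196 families each share a seed, and Mir196a-1 in Hoxb and Mir196a-2 in Hoxc give the same mature sequence.
miR-10a-5p: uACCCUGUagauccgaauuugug
miR-10b-5p: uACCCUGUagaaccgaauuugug
miR-196a-5p: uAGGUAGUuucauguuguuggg
miR-196b-5p: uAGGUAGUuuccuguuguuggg
miR-615-3p: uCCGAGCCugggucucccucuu

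Within 3000 bp the lists held 2 clusters at Mir10a, 4 at Mir10b, 2 at Mir196a-1, 1 at Mir196a-2, 4 at Mir196b and 4 at Mir615, with 0 called. The hairpin gene of Mir615, inside Hoxc5, lay within a cluster of 182 bp (chr15:103014893-103015074), and it was the only one of these that a cluster overlapped. The nearest cluster was 448 bp away at Mir196b, 494 bp at Mir10b, 763 bp at Mir196a-2, 784 bp at Mir196a-1 and 1596 bp at Mir10a. Of the long noncoding RNA genes of the loci, Hotairm1 had 3 clusters, Hotair 1 and Hottip 1, with 0 called. With Evx1 and Evx2, all 11 noncoding and neighbouring genes looked up had a cluster, with a median of 3. The clusters at several of them, such as Hotairm1, Mir10b and Mir615, were also counted at Hox genes. As only 0.0753% of all clusters were called (21 of 27878), the counts of 0 called at so few clusters say little.

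No cluster was called at the genes reported here that work with or upstream of Hox proteins. Over all clusters 0.0753% were called (21 of 27878), so a count of 0 says little about these genes. Among the TALE homeodomain cofactors, which bind DNA together with Hox proteins, 7 of the 8 reported here had a cluster: Meis1 and Pknox2 had 7 each, Pbx2 and Meis2 5 each, Pbx3 3, and Meis3 and Pknox1 1 each. Among genes of the Polycomb complexes, which silence Hox genes, 9 of the 11 reported here had a cluster, with 6 at Cbx8, 4 at Bmi1, 3 at Cbx2, 2 each at Suz12 and Ring1, and 1 each at Eed, Jarid2, Rnf2 and Cbx7. Of the Trithorax and boundary genes, which keep Hox genes active or separate their domains, 4 of 7 had one, with 8 at Kdm6b, 4 at Kmt2a and 1 each at Men1 and Kdm6a. All 7 upstream regulators had one: Cdx2, a caudal homeobox gene, and Fgf8 had 4 each, the retinoic acid receptor gene Rarg 3, Cdx1 and Cdx4 2 each, and Rarb and Gdf11 1 each. Beside the median count of 4 for the Hox genes, the medians over these genes were 4 for the cofactors, 1 for Polycomb, 1 for Trithorax and boundary genes and 2 for the upstream regulators. Many of these genes are far longer than Hox genes, and per 10 kb the median was 3.20 clusters for the Hox genes, against 0.25 for the cofactors, 0.31 for Polycomb, 0.080 for Trithorax and boundary genes and 1.05 for the upstream regulators. Pknox2, for example, had its 7 clusters in a window of 262 kb, which is 0.27 per 10 kb. Cbx8, Pbx2, Cdx2 and Fgf8, all in short windows, lay above the Hox median, at 5.65, 4.49, 3.24 and 3.21 per 10 kb. The other genes of these lists lay below it. The noncoding and neighbouring genes, which lie in or beside the Hox loci, had a median of 3.28 per 10 kb. At several of them, such as Hotairm1, Mir10b and Mir615, the clusters are the same ones that were counted at Hox genes. Their median is therefore no separate comparison. Evx1 and Evx2, which lie beyond the Hox windows, had 5.51 and 4.82 per 10 kb. With Cbx8, Pbx2, Cdx2 and Fgf8, they show that such a density was not particular to the Hox genes.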

How the data were processed

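RRBS was done on 4 fixed and 4 live samples. Bismark 0.14.4 (a bisulfite aligner), Trim Galore 0.4, ChIPseeker 1.12.1 and the build mm10 appear in the submitters' processing notes; how regions were called and filtered is not stated there or in the labels. The authors deposited 1 list of significant and 1 of not significant clusters, made over all samples, whose score column is 0 throughout, and a table of regions with a p-value and a signed methylation difference per region. Only positions and verdicts were used. Read depth is unknown. The 2 lists were pooled and BED positions made 1-based. Clusters overlapping a RefSeq GRCm38.p6 gene with 3000 bp on each side by at least 1 bp were counted; a locus ran 3000 bp beyond its outer genes. No test across animals or genes was run. Intervals are exact Clopper-Pearson 95% intervals for counting error, and a count of 0 carries a limit of 3 counts. In 500 windows of simulated clusters, 0 counts were wrong. Counting used pandas 2.3.3 and numpy 2.4.6 under Python 3.11.15, intervals scipy 1.17.1 and plots matplotlib 3.10.9. Members, lists and comparisons were chosen with earlier results of these data known; the windows of 100 kb, the cluster ends and the lengths were added after the data were seen. Per locus, the genes with most clusters, fewest clusters and largest covered length were named by rule, and other members were named to account for each gene. Some genes of the cofactor and Polycomb lists are not reported here, and the counts and medians of those lists leave them out. Alternatives covered the window, overlap, merging, minimum length, locus bounds, group borders and promoter window.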

Additional observations from a re-analysis of the deposited data

How the results depend on the processing

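The alternatives gave 77 values, of which 73 stayed within 1.5 times the reported count or length, or within its interval for the promoter share. The count of called Hox clusters was 0 under all 6 alternatives run for it. This outcome was fixed in advance, because no called region lay nearer than 7.95 Mb to a Hox locus. These 6 values are among the 73 and are no check of that count. Windows of 0, 1000 and 5000 bp gave 98, 118 and 142 Hox clusters. Merging clusters within 1000 bp of each other moved the count to 84, against 133 as listed, and at Hoxd to 20, against 39. The other loci, all longer than Hoxd, then held 18 at Hoxa, 27 at Hoxb and 19 at Hoxc. Merging joins close neighbours by construction, and 48.7% of the gaps at Hoxd were under 1000 bp. With each cluster counted at its nearest Hox gene only, the median of the central genes was 2, against 4, and that of the posterior genes 3, against 3.5. Promoter windows extended by 1000 bp were overlapped at 66.7% of Hox promoters, against 29.2%, and at 23.4% of the others, against 7.74%. With clusters of at least 50 bp only, 36 Hox genes kept a cluster, against 37. No paired analysis was possible because the lists give 1 verdict per cluster over all samples; for the same reason no sample could be left out. The unknown depth limits what clusters that were not called can show.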

Other observations

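The Hoxb locus held 11 clusters farther than 3000 bp from any of its Hox genes, against 3 each at Hoxa and Hoxc and 1 at Hoxd. In the not significant list, 73 clusters come ahead of the part that runs chromosome by chromosome, and 0 of the 133 Hox clusters were among these 73. These 73 are a very small part of the 27878 clusters in all, so that count of 0 says little. Very short clusters, of at most 10 bp, made up 5.26% of the Hox clusters and 11.9% of the others. These values were looked at after the data were seen and were not tested.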
